A study of Homo sapiens with 24 samples.

Results

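The response of SUM159 Aldefluor- cells to the small molecule ID8 was measured on 6 arrays, out of 24 in the series. SUM159 is an established human line of triple-negative breast cancer with mesenchymal features, and every SUM159 value here comes from that 1 line. The 6 arrays were chosen by their labels: 3 from cells given 5 µM ID8 for 72 hours and 3 from cells given DMSO, the vehicle, each pair coming from experiment 2, 3 or 4. All 6 hold cells that were stained with the Aldefluor reagent and sorted into the non-fluorescent fraction, with gates drawn from a control tube in which DEAB blocked the reaction. The other arrays of the same design are SUM159 Aldefluor+ cells and both fractions of T47D, a luminal, oestrogen-receptor-positive breast cancer line, and all of them serve to estimate the spread between arrays. The question was which of 22395 named genes differed between ID8 and DMSO in the Aldefluor- cells.

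ID8 is used as an inhibitor of DYRK kinases, a family that phosphorylates proteins of the cell cycle, of splicing and of transcription. The Aldefluor reagent is converted to a fluorescent product by aldehyde dehydrogenases, and breast cancer cells without that activity are commonly taken as the non-stem fraction. Several of the genes below are known targets of YAP and TAZ, coactivators that bind DNA through TEAD factors, or of SRF, a factor that reads the state of the actin cytoskeleton and controls genes of the contractile apparatus.

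Values are log2 signals that the authors had normalised and adjusted for batch, and a difference of 1 is a 2-fold change. Array medians lay between 2.05 and 2.12, the interquartile range was 2.88 on the SUM159 DMSO Aldefluor+ array of experiment 4 and 2.97 to 3.12 on the others, and signals below 2 are called dim here, since little of such a signal may come from the transcript. Arrays carry no count depth, and their number limits the precision. The labelled line fitted its markers: 13 of 13 genes typical of SUM159 were higher in SUM159 than in T47D, and the opposite held for 15 of 15 genes typical of T47D. The gaps were small in the adjusted values. Genes typical of T47D averaged 4.17 to 4.41 on SUM159 arrays and 4.78 to 4.97 on T47D arrays. None of them had a mean below 2 in a SUM159 group. Genes typical of SUM159 averaged 4.21 to 4.54 on SUM159 arrays and 3.83 to 4.05 on T47D arrays. Values before the authors' batch adjustment were not analysed here, so whether it compressed differences, between the lines or between ID8 and DMSO, was not tested. All folds are those of the adjusted values, and so are the levels called dim or bright. Beyond these markers, levels are compared only within a line.

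The Aldefluor- label fitted the level of ALDH1A1, the cytosolic aldehyde dehydrogenase best known from stem cell assays. ALDH1A1 read 2.21, 2.36 and 2.02 in ID8 cells and 2.45, 1.98 and 2.19 in DMSO cells of experiments 2, 3 and 4. These groups overlapped, with a difference of -0.01, and both lay far below the Aldefluor+ means of 5.22 with ID8 and 5.01 with DMSO. ALDH1A3 differed by -0.32 and was not called. Of the 17 measured members of the aldehyde dehydrogenase family none was called, and the furthest were ALDH3B1 at -0.61 and ALDH1B1 at 0.52.

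RNA yield per sorted cell was 10.2, 14.1 and 13.7 pg in the ID8 samples of experiments 2, 3 and 4, against 11.6, 9.08 and 11 pg in the DMSO samples. It was higher with ID8 in 2 of 3 experiments, with means of 12.7 ± 2.17 pg with ID8 and 10.6 ± 1.31 pg with DMSO (SD, n = 3 each). The log2 ratio averaged 0.26 ± 0.42 (SD, n = 3), and the exact two-sided sign-flip permutation test gave p = 0.5, where 0.25 is the smallest value that 3 experiments allow. Each sample held 134000 to 417000 ID8 cells or 95000 to 210000 DMSO cells. Each value is an average over a sorted fraction, so a change in each cell and a change in which cells entered the gate cannot be told apart.

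ID8 changed few genes in the Aldefluor- cells, and more of them upward than downward. Of 22395 genes, 62 were called at an adjusted p under 0.05 (limma, Benjamini-Hochberg), which is 0.277% of the genes tested. They comprised 42 higher genes (0.188%) and 20 lower genes (0.0893%). An unadjusted p under 0.05 was found for 1799 genes (8.03%). The 5 genes that rose by more than 2 on the log2 scale were ANKRD1, MYL9, SULT1E1, TGFB2 and EDIL3. The deepest decrease was 1.69, in PTPN22. In all, 26 of the higher genes and 7 of the lower ones differed by at least 1. The median over all genes was -0.01, and 47.8% of all genes lay above 0.

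For each of the 62 called genes the 3 ID8 arrays and the 3 DMSO arrays did not overlap, which was also true of 18.9% of all genes. For 16 called genes at least 1 of the compared groups had a dim mean, and for SNORD116-18 and REP15 both did, so their folds partly reflect probe background. The number of calls depended on the arrays used. It was 21 without experiment 2, 16 without experiment 3 and 8 without experiment 4, while 22 genes were called from the 12 SUM159 arrays and 2, ANKRD1 and MYL9, from the 6 compared arrays alone. ANKRD1, MYL9, SULT1E1, EDIL3, CXCL12, LINC00619 and TLR2 were called whichever experiment was left out, and every other called gene missed the threshold in at least 1 of these fits. The submitters' text already reports batch adjustment, and a fit without the experiment as a block called 225 genes, among them all 62.

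**Figure D1:**
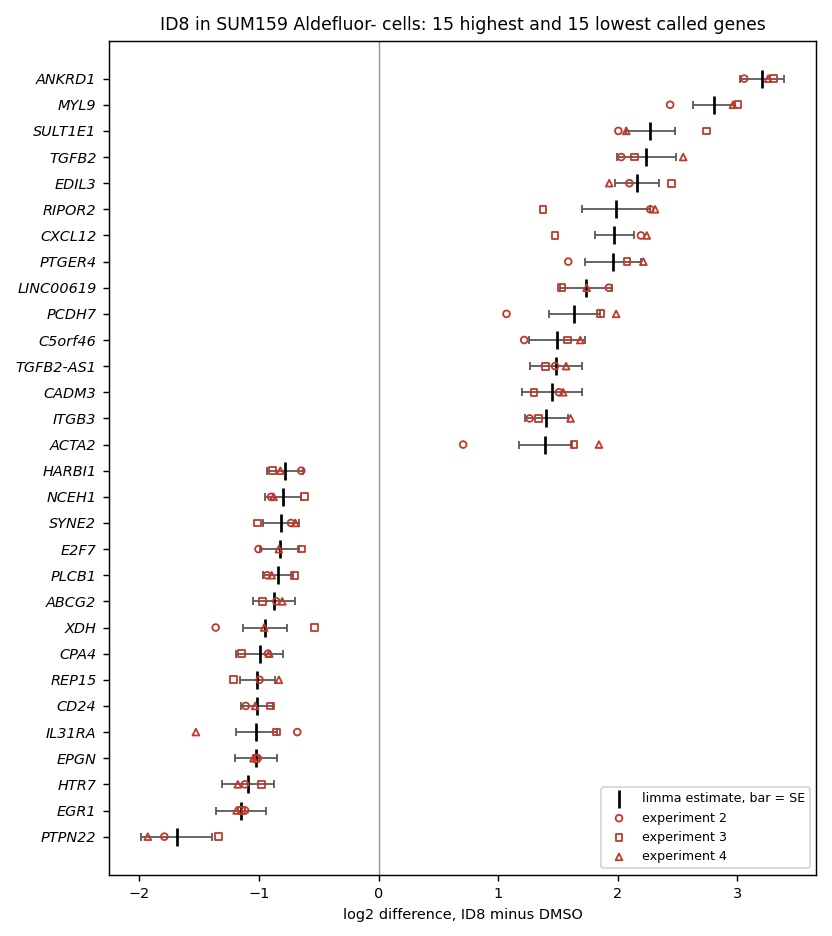
The 15 highest and 15 lowest called genes in SUM159 Aldefluor- cells, as log2 differences, ID8 minus DMSO. Bars give the limma estimate with its SE and points the 3 experiments, all of which lie on the same side of 0 for each gene, from 3.21 for ANKRD1 to -1.69 for PTPN22.

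ANKRD1 showed the largest increase. It encodes a muscle ankyrin-repeat protein found in the nucleus and the sarcomere and is one of the best-known YAP and TAZ targets. Its signal was 4.64, 4.92 and 4.79 in ID8 cells of experiments 2, 3 and 4, against 1.58, 1.61 and 1.53 in DMSO cells. The gene was dim in every DMSO array and well above that level in every ID8 array. The difference was 3.21 ± 0.187 (limma estimate ± SE, adjusted p = 2.26e-07), and between 3.16 and 3.28 when 1 experiment was left out. It equals 9.23-fold in the adjusted signals, a value that depends on the probe background because the DMSO level was dim.

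The contractile genes were the list with the most calls. Of 17 measured smooth muscle contractile genes, 5 rose and none fell, where 0.188% of all genes were called higher and 0.0893% lower. The same shares stand beside the counts of calls in the other lists below. The list's median difference, called members included, was 0.39, against -0.01 over all genes. The lists were chosen with earlier results of these data known. MYL9, a regulatory light chain of the myosin of smooth muscle and non-muscle cells, read 7.44, 7.58 and 7.43 in ID8 cells against 5.00, 4.57 and 4.47 in DMSO cells. Both groups of MYL9 were bright and more than 2 apart, and the difference of 2.80 ± 0.173 was called (limma, adjusted p = 2.86e-07).

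ACTA2, the smooth muscle alpha-actin, read 2.98, 3.31 and 3.32 in ID8 cells and 2.27, 1.67 and 1.48 in DMSO cells. TAGLN, which encodes the actin-binding protein transgelin, read 2.54, 3.34 and 3.04 in ID8 cells and 1.66, 1.46 and 1.64 in DMSO cells. In both genes the groups did not overlap and the DMSO mean was dim. ACTA2 rose by 1.40 ± 0.219 and TAGLN by 1.39 ± 0.237 (limma, adjusted p = 0.00832 and 0.0186). Without experiment 3 the adjusted p was 0.23 for ACTA2 and 0.37 for TAGLN, and without experiment 4 it was 0.25 and 0.20, although the differences stayed between 1.14 and 1.74.

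TPM1, a tropomyosin that lines actin filaments, read 5.63, 5.62 and 5.93 in ID8 cells against 5.10, 4.58 and 4.83 in DMSO cells, a rise of 0.89 (limma, adjusted p = 0.0299). MYLK, the kinase that phosphorylates the regulatory light chains, read 2.47, 2.23 and 2.10 in ID8 cells against 1.69, 1.67 and 1.51 in DMSO cells, a rise of 0.64 from a dim level (limma, adjusted p = 0.0436). The ID8 arrays of both genes all lay above the DMSO arrays. Without experiment 2, 3 or 4 neither was called, with adjusted p of 0.089, 0.21 and 0.32 for TPM1 and of 0.33, 0.32 and 0.24 for MYLK. PDLIM5, a PDZ and LIM domain scaffold of the actin cytoskeleton, rose by 0.81 (adjusted p = 0.0353) and was singled out after its value was seen.

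The other contractile genes were not called. CALD1, caldesmon, differed by 0.62, ACTG2, the smooth muscle gamma-actin, by 0.58, TGFB1I1 by 0.58 and CNN2 by 0.39. SRF itself differed by 0.31. The differentiated smooth muscle genes MYH11, DES, MYOCD, LMOD1 and CNN1 lay between -0.25 and -0.04. Of 8 measured fibroblast markers none was called, and their mean level was 1.38 to 1.52 in ID8 arrays and 1.48 to 1.6 in DMSO arrays. Among 22 mesenchymal genes the called ones were ACTA2 and TAGLN, and the list's median was -0.01.

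**Figure D2:**
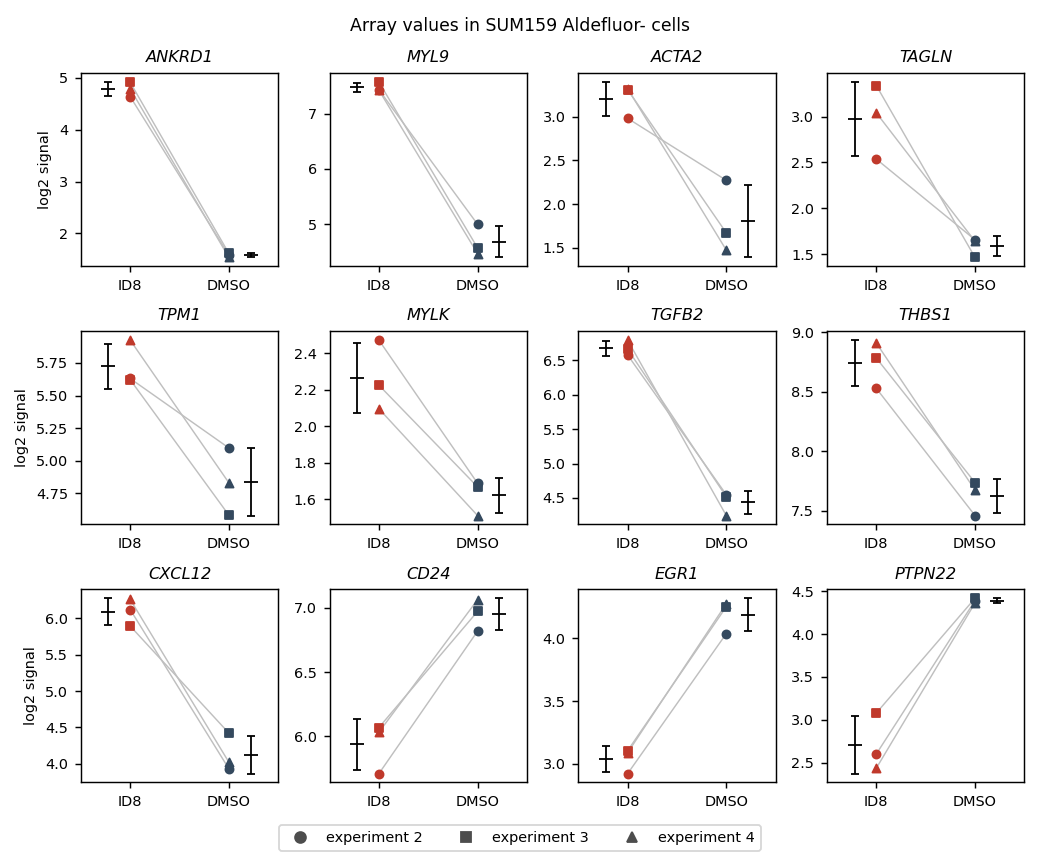
The log2 signal of 12 called genes on each array of SUM159 Aldefluor- cells, ID8 left and DMSO right, with the mean and SD of 3 experiments. In every panel the ID8 and DMSO points are separate, as for MYL9 with ID8 points from 7.43 to 7.58 and DMSO points from 4.47 to 5.00.

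The sequence before the start of genes that changed is shown because TEAD and SRF sites are known in genes of these lists. Promoters came from RefSeq on build GRCh38.p14, with windows of 250 bases before to 50 bases after the start, and the 250 bases before the start are printed on the gene's strand. Of the 62 called genes, 34 of the 42 higher ones and 17 of the 20 lower ones were in the promoter table, and MYL9 and TAGLN were not. Capitals mark the TEAD core GGAATG, the AP-1 site TGANTCA and the CArG box of SRF, CCWWWWWWGG with W for A or T, searched on both strands. Only exact matches were marked and counted. The ACTA2 window holds ccctatatgg and ccttgtttgg, each 1 base off the CArG pattern and so left unmarked. The windows shown are ANKRD1 at chr10:90921088-90921337 on the minus strand, TGFB2 at chr1:218345086-218345335 on the plus strand, ACTA2 at chr10:88952774-88953023 on the minus strand and THBS1 at chr15:39580829-39581078 on the plus strand.
ANKRD1: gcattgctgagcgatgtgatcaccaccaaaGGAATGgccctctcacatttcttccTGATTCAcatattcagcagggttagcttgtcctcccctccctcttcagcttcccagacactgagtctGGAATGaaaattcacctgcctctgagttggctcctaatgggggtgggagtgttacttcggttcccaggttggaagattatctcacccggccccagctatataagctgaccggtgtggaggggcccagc
TGFB2: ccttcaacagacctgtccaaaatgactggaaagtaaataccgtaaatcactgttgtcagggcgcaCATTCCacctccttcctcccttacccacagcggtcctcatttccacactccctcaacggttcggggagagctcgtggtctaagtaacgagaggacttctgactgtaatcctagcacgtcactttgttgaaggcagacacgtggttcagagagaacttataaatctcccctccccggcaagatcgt
ACTA2: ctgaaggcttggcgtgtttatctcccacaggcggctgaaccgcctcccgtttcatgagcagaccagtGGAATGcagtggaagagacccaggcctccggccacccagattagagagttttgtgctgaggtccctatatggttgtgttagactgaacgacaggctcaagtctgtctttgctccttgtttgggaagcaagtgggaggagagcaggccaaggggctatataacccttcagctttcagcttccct
THBS1: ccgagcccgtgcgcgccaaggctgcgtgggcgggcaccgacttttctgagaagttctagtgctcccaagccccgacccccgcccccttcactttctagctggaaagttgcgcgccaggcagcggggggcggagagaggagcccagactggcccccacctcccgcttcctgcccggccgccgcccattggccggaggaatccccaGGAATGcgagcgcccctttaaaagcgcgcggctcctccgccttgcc
ANKRD1 held GGAATG at 220 and 128 bases before its start, with TGATTCA at 195 bases. TGFB2 held the core on the other strand at 185 bases, ACTA2 held it at 183 bases and THBS1 at 46 bases. A match to these letters is a description and not a shown site. The 4 windows were not taken by rank, and each holds a TEAD core. Those of EDIL3, CXCL12 and PTGER4, which rose more than THBS1, held none of the 3 motifs and are not printed. The TEAD core was in 8 of 34 windows of higher genes and in 4 of 17 windows of lower genes, 23.5% in both directions, against 12.1% of the 15307 tested genes with a window and 14.2% of all 27305 windows. It was in 9 of 18 windows of the YAP and TAZ list and in 4 of 12 windows of the contractile list. The CArG box was in 1 of 34 windows of higher genes, that of MYLK, and in 4 of 12 windows of the contractile list, against 1.26% of tested genes. The AP-1 site was in 3 of 34 windows of higher genes and 1 of 17 of lower genes, against 6.31% of tested genes.

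Other YAP and TAZ targets moved less than ANKRD1. Of 23 measured, ANKRD1 and TGFB2 rose and none fell, and the list's median was 0.15 with 15 members above 0. NUAK2, a stress-activated kinase, read 3.04, 3.66 and 3.73 in ID8 cells and 2.38, 2.44 and 2.38 in DMSO cells, without overlap, but its difference of 1.08 missed the threshold (limma, adjusted p = 0.121). CCN2, a matricellular protein formerly called CTGF, read 5.14, 5.88 and 5.92 in ID8 cells and 5.2, 4.92 and 4.55 in DMSO cells, with overlap, and differed by 0.76. CCN1 differed by 0.49 and F3, tissue factor, by 0.76, and neither was called.

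TGFB2, a ligand of the TGF-beta family, was the leading secreted factor among the higher genes. It read 6.58, 6.66 and 6.79 in ID8 cells against 4.55, 4.52 and 4.24 in DMSO cells. The difference of 2.24 ± 0.244, or 4.73-fold, was called (limma, adjusted p = 3.4e-04), and without experiment 4 it was 2.09 with an adjusted p of 0.052. TGFB2-AS1, the RNA antisense to TGFB2, read 3.30, 3.03 and 3.48 in ID8 cells and 1.82, 1.64 and 1.91 in DMSO cells, a rise of 1.48 (adjusted p = 0.00527). How far the amplified product kept strand was not given in the sources used here, so signal from the pair cannot be told apart. Of the 24 measured TGF-beta ligands, receptors and targets, TGFB2 was the only one called, with a list median of 0.15. TIMP3, an inhibitor of matrix metalloproteases, differed by 1.38 and missed the threshold (adjusted p = 0.186), with DMSO arrays spread from 0.92 to 1.97.

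Genes of other secreted proteins were called in both directions, with EPGN and CPA4 lower. CXCL12, the chemokine ligand of CXCR4, read 6.12, 5.90 and 6.26 in ID8 cells and 3.93, 4.42 and 4.02 in DMSO cells, and every ID8 array lay more than 1 above every DMSO array. Its rise was 1.97 ± 0.163, or 3.92-fold (limma, adjusted p = 1.46e-05). EDIL3, a secreted protein that binds integrins, read 3.80, 3.98 and 3.47 in ID8 cells against 1.70, 1.54 and 1.54 in DMSO cells, a rise of 2.16 from a dim level (adjusted p = 1.66e-05). THBS1, the matricellular protein thrombospondin-1, was bright throughout, at 8.53, 8.78 and 8.91 in ID8 cells and 7.46, 7.74 and 7.67 in DMSO cells. Its rise of 1.12 ± 0.146 was called (adjusted p = 0.00181), but the adjusted p was 0.059 without experiment 3 and 0.088 without experiment 4.

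EDN1, the precursor of the vasoconstrictor endothelin-1, read 6.62, 6.96 and 6.85 in ID8 cells and 6.15, 5.68 and 5.86 in DMSO cells. The ID8 arrays of EDN1 were all higher, by 0.91 on average (limma, adjusted p = 0.00823), and it missed the threshold without experiment 3 (0.27) and without experiment 4 (0.20). SCG5, a secreted chaperone of neuroendocrine cells, rose by 1.07, and the secreted metalloproteases ADAMTS1 and ADAMTS9 rose by 1.12 and 0.94. ADAMTS1 was dim in DMSO cells at 1.24, 1.04 and 1.17, and read 2.09, 2.17 and 2.57 in ID8 cells. Of the 18 measured matricellular proteins EDIL3 and THBS1 rose and none fell, with a median of 0.30. Of the 23 measured members of the list of matrix proteases and inhibitors, which does not include ADAMTS9, ADAMTS1 was called. The median of that list was -0.02. None of the 17 measured collagens was called.

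Called genes for surface receptors included both higher and lower ones, and HTR7 and IL31RA were among the lower. PTGER4, the EP4 receptor of prostaglandin E2, read 4.51, 5.08 and 4.85 in ID8 cells and 2.92, 3.00 and 2.63 in DMSO cells. All ID8 arrays of PTGER4 were at least 1 above all DMSO arrays, and the rise of 1.96 ± 0.237, or 3.89-fold, was called (limma, adjusted p = 0.001), with 0.063 without experiment 4. It was the only called gene of 12 measured genes of prostaglandin E2 synthesis and reception. PTGS1 and PTGS2, which make the precursor of the prostaglandin, differed by 0.81 and 0.22 and were not called.

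ITGB3, the beta-3 integrin that pairs with the alpha-V subunit, read 4.30, 4.50 and 4.45 in ID8 cells and 3.04, 3.17 and 2.84 in DMSO cells. It rose by 1.40 (limma, adjusted p = 0.00181), with 0.096 without experiment 4, and the ID8 arrays were tightly grouped above the DMSO ones. None of the other 20 measured integrins and laminins was called, and ITGAV, the alpha-V subunit, differed by 0.28. TLR2, a receptor for bacterial lipoproteins, read 4.00, 4.15 and 4.25 in ID8 cells and 2.78, 2.66 and 2.85 in DMSO cells, a rise of 1.37 (adjusted p = 7.22e-04). NPR3, the clearance receptor of natriuretic peptides, read 5.03, 5.44 and 5.77 in ID8 cells and 4.19, 3.88 and 4.05 in DMSO cells, a rise of 1.37 (adjusted p = 0.0138) that was lost without experiment 3 (0.26) and without experiment 4 (0.14).

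MME, a surface peptidase also known as neprilysin and a myoepithelial marker, rose by 1.32, and ACKR1, a decoy receptor for chemokines, by 1.04. MME was the only called gene of 10 measured basal and myoepithelial genes, and the keratins KRT5 and KRT14 differed by 0.36 and -0.08. Adhesion molecules that rose were PCDH7, a protocadherin, by 1.64, CADM3 by 1.45 and NRCAM by 0.82. CADM3 read 5.27, 5.04 and 5.16 in ID8 cells and 3.76, 3.73 and 3.61 in DMSO cells, while CADM3-AS1, its antisense partner, differed by 1.22 and just missed the threshold (limma, adjusted p = 0.0515). The transmembrane protein PLXDC2 rose by 0.86. CADM3, MME, ACKR1, NRCAM and PLXDC2 were each called with all arrays but not when any single experiment was left out.

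SULT1E1, the sulfotransferase that inactivates oestrogens, had the third largest increase. It read 4.66, 4.95 and 4.91 in ID8 cells and 2.66, 2.21 and 2.84 in DMSO cells. The groups were far apart, and the rise of 2.27 ± 0.203, or 4.83-fold, was called (limma, adjusted p = 2.51e-05). RIPOR2, an inhibitor of the small GTPase RhoA, read 3.44, 3.03 and 3.81 in ID8 cells against 1.17, 1.65 and 1.50 in DMSO cells, all dim. It rose by 1.99 (adjusted p = 0.00476), with 0.098 without experiment 2. SOCS1, a feedback inhibitor of cytokine signalling through JAK kinases, rose by 1.24, with means of 3.64 in ID8 cells and 2.40 in DMSO cells.

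Among regulators, ATOH8, a basic helix-loop-helix transcription factor, rose by 1.18 and EMX2, a homeobox factor, by 0.83. The kinases STK38L, which belongs to the NDR kinases next to the Hippo pathway, and TNIK rose by 0.73 and 0.78. RAB23, a small GTPase that restrains hedgehog signalling, rose by 0.64, ANXA3, an annexin, by 0.83 and TMEM97, the sigma-2 receptor, by 0.55. LINC00619, a long non-coding RNA, rose by 1.73 and C5orf46 by 1.50. The remaining higher genes were WDR31 at 1.19, SNORD116-18 at 0.98, TMEM131L at 0.78 and ANKS1B at 0.69. SNORD116-18 was dim in both groups, at 1.71, 1.56 and 1.62 with ID8 and 0.59, 0.72 and 0.64 with DMSO, and it belongs to a cluster of near-identical small nucleolar RNAs that its probes may not separate.

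The lower genes showed smaller differences. PTPN22, a tyrosine phosphatase best known from lymphocytes, read 2.60, 3.08 and 2.44 in ID8 cells and 4.39, 4.42 and 4.36 in DMSO cells. The DMSO arrays of PTPN22 lay within 0.1 of each other and all ID8 arrays were lower, with a difference of -1.69 ± 0.297 (limma, adjusted p = 0.0222). Left-out experiments kept its difference between -1.57 and -1.86, but with adjusted p of 0.11 to 0.28.

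EGR1, an immediate early transcription factor induced by growth factor signalling, read 2.92, 3.11 and 3.09 in ID8 cells and 4.04, 4.25 and 4.28 in DMSO cells. It fell by 1.15 ± 0.21 (limma, adjusted p = 0.0289), and without 1 experiment the adjusted p was 0.23 to 0.32. Its promoter is shown because it carries exact CArG boxes, which only MYLK also had among the called genes with a window. The window is chr5:138465229-138465478 on the plus strand of GRCh38.p14, with the CArG boxes in capitals, at 105 and 83 bases before the start.
EGR1: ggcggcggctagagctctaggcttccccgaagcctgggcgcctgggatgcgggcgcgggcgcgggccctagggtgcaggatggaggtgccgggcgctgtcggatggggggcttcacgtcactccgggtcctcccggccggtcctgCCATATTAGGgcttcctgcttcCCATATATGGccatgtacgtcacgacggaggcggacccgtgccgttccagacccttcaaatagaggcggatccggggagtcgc
Among the other 23 measured immediate early genes none was called. FOSB read 4.41, 4.61 and 4.39 in ID8 cells and 3.08, 3.56 and 2.74 in DMSO cells, on the other side of 0 from EGR1, and its difference of 1.34 missed the threshold (adjusted p = 0.0833). FOS, its paralogue in the AP-1 factor, differed by 0.94 (adjusted p = 0.121), EGR3 by -0.54 and FOSL1 by -0.41.

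Signalling genes among the lower ones were HTR7, a serotonin receptor, at -1.09, EPGN, a ligand of the EGF receptor, at -1.03, IL31RA, a cytokine receptor subunit, at -1.02 and PLCB1, a phospholipase C, at -0.84. EPGN read 2.88, 2.85 and 2.81 in ID8 cells and 3.89, 3.88 and 3.86 in DMSO cells, with very little spread in either group (limma, adjusted p = 0.0188). It was the only called gene of 14 measured EGF family ligands and receptors, of which 11 lay below 0. The receptor EGFR differed by -0.48 and was not called.

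CD24 is a surface glycoprotein whose low level is part of a common breast cancer stem cell phenotype. Its signal was bright in the adjusted values, which do not show how strongly SUM159 expresses it beside other lines. CD24 fell by 1.02 ± 0.135 (limma, adjusted p = 0.002). It read 5.71, 6.07 and 6.03 in ID8 cells and 6.82, 6.97 and 7.06 in DMSO cells. All ID8 arrays of CD24 were lower than all DMSO arrays, and without experiment 4 its adjusted p was 0.097. ABCG2, a drug efflux pump used as a marker of side-population cells, read 2.69, 2.80 and 2.83 in ID8 cells and 3.54, 3.77 and 3.64 in DMSO cells, a difference of -0.88 (adjusted p = 0.0465). Of 21 measured stem cell markers and pluripotency factors, ITGB3 rose, CD24 and ABCG2 fell, and the rest were not called, with a list median of -0.15. CD44, the partner of CD24 in that phenotype, differed by -0.15.

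Of 22 measured steroid and drug metabolising enzymes, SULT1E1 rose, AOX1 fell and the others were not called, with a median of 0.08. Enzymes among the lower genes were XDH, xanthine dehydrogenase, at -0.95, AOX1, aldehyde oxidase, at -0.71 and NCEH1, a cholesterol ester hydrolase, at -0.80. AOX1 read 3.55, 3.73 and 3.66 in ID8 cells against 4.40, 4.35 and 4.32 in DMSO cells, without overlap. CPA4, a carboxypeptidase, differed by -0.99, REP15, an effector of a Rab GTPase, by -1.01, and USP12, a deubiquitinase, by -0.72. E2F7, a repressor among the E2F factors, fell by 0.83, and SYNE2, a nesprin that links the nucleus to the actin cytoskeleton, by 0.81. A further, dim probe set of SYNE2 differed by 0.02 and was not used, since the brighter probe set stood for the gene. DSP, the desmosomal plaque protein desmoplakin, fell by 0.57 and was the only call among 24 measured genes of epithelial junctions. C19orf33 at -0.75, HARBI1 at -0.78 and KRCC1 at -0.71 complete the 20. Of the lower genes in this paragraph none was called when any 1 experiment was left out.

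The lists of G1/S and DNA replication, mitosis, cyclins and CDK inhibitors, cholesterol synthesis, NF-kB targets and DYRK and CLK kinases held no called gene. Counts above or below 0 stand beside 47.8% of all genes above 0. Members of a list share the same arrays and may vary together, so these counts were not tested. Of 38 measured genes of G1/S and DNA replication, 28 lay above 0 with a median of 0.17, led by CCNE1, cyclin E1, at 0.76. Of 33 measured mitotic genes, 27 lay below 0 with a median of -0.09, among them MKI67 and CENPF, both at -0.32. The cyclins and CDK inhibitors had a median of -0.16 over 16 genes, with CCND2 at -0.59 and CDKN1B at -0.38.

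Of 18 measured genes of cholesterol synthesis and uptake, 17 lay above 0 with a median of 0.30. An unadjusted p under 0.05 (limma) was found for 5 of the 18, against 8.03% of all genes. It is no trait of this list alone, since 10 of the 17 contractile genes also had one. The leading members were HMGCS1 at 0.53, NSDHL at 0.50 and DHCR7 at 0.49, with adjusted p between 0.24 and 0.31 in limma. HMGCS1, the synthase of HMG-CoA, read 5.94, 6.18 and 6.05 in ID8 cells and 5.55, 5.52 and 5.51 in DMSO cells, without overlap. Among 25 measured NF-kB targets and cytokines, 19 lay above 0, and SAA1 at 1.01 and IL1B at 0.89 were the furthest, neither of them called. The 11 measured DYRK, CLK and related kinases had a median of -0.12. DYRK1A differed by -0.23, DYRK1B by 0.12, DYRK2 by 0.19, DYRK3 by -0.12, DYRK4 by -0.09, CLK2 by -0.18, CLK3 by 0.00 and CLK4 by 0.10. Among 11 substrates and regulators linked to these kinases, RCAN1, a calcineurin inhibitor, differed by 0.38.

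Markers of other cell types held no called gene. In ID8 arrays the mean level was 1.17 to 1.25 over 9 endothelial markers, 1.36 to 1.39 over 13 leukocyte markers and 1.18 to 1.26 over 8 erythroid and platelet markers. In DMSO arrays the same lists averaged 1.10 to 1.26, 1.31 to 1.43 and 0.90 to 1.18. Most of these markers were dim in every group, with 8 of 9, 11 of 13 and 7 of 8 below 2 in the ID8 group. The furthest was the haemoglobin gene HBG1, with means of 2.06 in ID8 cells and 0.86 in DMSO cells and an adjusted p of 0.241 in limma.

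**Figure D3:**
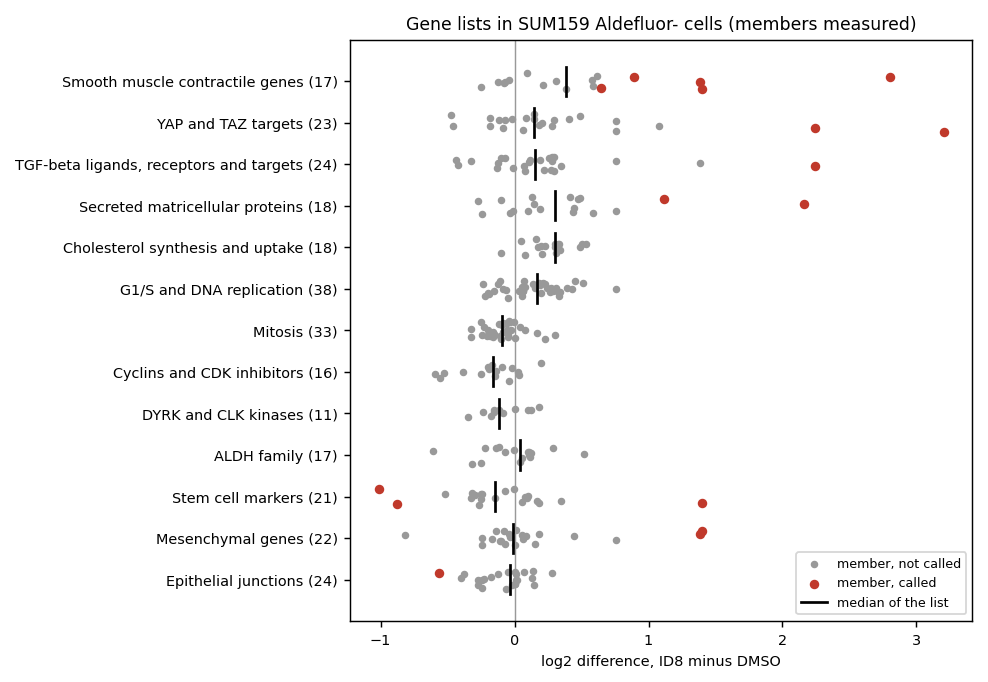
Log2 difference, ID8 minus DMSO, of each measured member of 13 gene lists in SUM159 Aldefluor- cells, with called members marked and a line at each list's median. The contractile list holds 5 called members and a median of 0.39, and the cholesterol list holds none with a median of 0.30.

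The Aldefluor+ cells of the same experiments help to place the levels of 4 of the higher genes, which were not taken by rank. ANKRD1 averaged 4.78 ± 0.138 in Aldefluor- cells with ID8 and 1.58 ± 0.0395 with DMSO, and 4.34 ± 0.296 in Aldefluor+ cells with ID8 and 3.65 ± 0.170 with DMSO (SD, n = 3 each). With DMSO the 2 fractions were thus far apart in ANKRD1, and with ID8 they were close. MYL9 averaged 7.48 ± 0.0831 in Aldefluor- cells with ID8 and 4.68 ± 0.282 with DMSO, and 7.45 ± 0.0983 in Aldefluor+ cells with ID8 and 5.82 ± 0.243 with DMSO. THBS1 averaged 8.74 ± 0.194 with ID8 and 7.62 ± 0.145 with DMSO in Aldefluor- cells, and 8.34 ± 0.0984 with ID8 and 8.39 ± 0.165 with DMSO in Aldefluor+ cells. NPR3 averaged 5.41 ± 0.368 with ID8 and 4.04 ± 0.155 with DMSO in Aldefluor- cells, and 5.64 ± 0.184 with ID8 and 5.59 ± 0.413 with DMSO in Aldefluor+ cells. In each of the 4 genes the Aldefluor- DMSO group was the lowest, which did not hold for every higher gene. With DMSO, TGFB2 averaged 4.44 in Aldefluor- and 4.24 in Aldefluor+ cells, LINC00619 2.49 and 1.97, and EMX2 3.07 and 2.51. Differences between fractions share the Aldefluor- arrays with the ID8 difference reported here, so these levels are given side by side without a test.

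**Figure D4:**
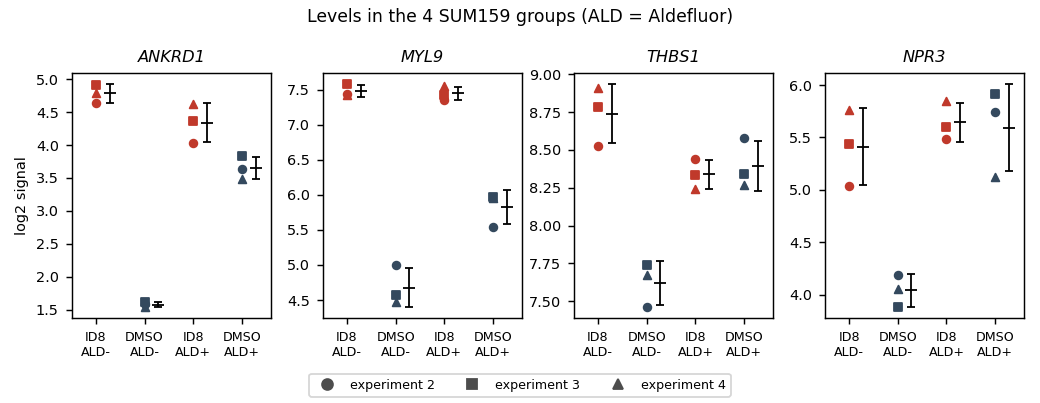
Log2 signal of ANKRD1, MYL9, THBS1 and NPR3 in the 4 SUM159 groups, with each array as a point and the mean and SD of 3 experiments. The Aldefluor- DMSO group is lowest in each panel, at 1.58 for ANKRD1 and 4.68 for MYL9.

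In SUM159 Aldefluor+ cells ID8 changed 54 genes (0.241%), 24 upward (0.107%) and 30 downward (0.134%). Those arrays are not among the 6 compared here. Both fractions shared 16 called genes, which is 25.8% of the 62 and 29.6% of the 54, and none was called in opposite directions. The shared higher genes were MYL9, SULT1E1, EDIL3, CXCL12, LINC00619, TLR2, EMX2, NRCAM, TMEM131L and STK38L. The shared lower genes were PTPN22, EGR1, IL31RA, SYNE2, C19orf33 and AOX1. Of the 62 genes, 58 had a smaller difference in the Aldefluor+ cells, but the 62 were selected on their Aldefluor- values.

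The test of the difference between the responses of the fractions called 1 gene, ANKRD1 (0.00447% of genes), and an unadjusted p under 0.05 was found for 1582 genes. ANKRD1 rose by 3.21 in Aldefluor- cells, against a difference of 0.69 in Aldefluor+ cells that was not called (adjusted p = 0.16). The response in Aldefluor- cells was larger by 2.52 ± 0.264 (limma, adjusted p = 0.00121). Without experiment 2 or without experiment 3 no gene was called in this test, and without experiment 4 ANKRD1 alone was. THBS1 rose by 1.12 in Aldefluor- cells and stood at -0.06 in Aldefluor+ cells, and the difference of these responses missed the threshold (adjusted p = 0.12). EPGN, at -1.03 and 0.63, and DSP, at -0.57 and 0.40, had adjusted p of 0.0651 and 0.0965 for it.

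In T47D Aldefluor- cells ID8 changed 4 genes (0.0179%), none of them among the 62. The test of the difference between the Aldefluor- responses of both lines called 15 genes (0.067%), with SUM159 above T47D for 12 (0.0536%) and below it for 3 (0.0134%). An unadjusted p under 0.05 was found for 1505 genes. Of the 15, 12 were also among the 62. Both tests use the same SUM159 Aldefluor- arrays, so this overlap is partly built in and is no separate evidence. The count was 13 without experiment 2, 9 without experiment 3 and 5 without experiment 4 of SUM159.

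ANKRD1 differed most between the lines, with 3.21 in SUM159 and -0.04 in T47D (difference 3.25 ± 0.264, limma, adjusted p = 3.27e-05). SULT1E1 differed by 2.27 in SUM159 and -0.47 in T47D (difference 2.75, adjusted p = 3.82e-04), and CXCL12 by 1.97 and -0.56 (difference 2.53, adjusted p = 8.64e-05). PTGER4 stood at 1.96 in SUM159 and -0.29 in T47D, and EDIL3 at 2.16 and 0.00. THBS1 pointed in opposite directions, at 1.12 in SUM159 and -0.77 in T47D, where it was not called (difference 1.89, adjusted p = 5.05e-04). MYL9 showed 2.80 in SUM159 and 0.90 in T47D, which was not called there (difference 1.90, adjusted p = 0.00312).

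The 3 genes with a lower response in SUM159 were CD24, NTN4 and GLYATL3. CD24 stood at -1.02 in SUM159 and 0.14 in T47D, a difference of -1.15 (limma, adjusted p = 0.0281). NTN4, the secreted guidance protein netrin-4, stood at -0.74 in SUM159 and 0.94 in T47D without a call in either line, and the difference of -1.68 was called (adjusted p = 0.00445). GLYATL3, an acyltransferase, stood at -0.41 in SUM159 and 1.48 in T47D, where it was called, with a difference of -1.89 (adjusted p = 0.018). TGFB2 did not differ past the threshold between the lines, at 2.24 in SUM159 and 1.00 in T47D (adjusted p = 0.372), and neither did ACTA2, at 1.40 and 0.83 (adjusted p = 0.796).

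**Figure D5:**
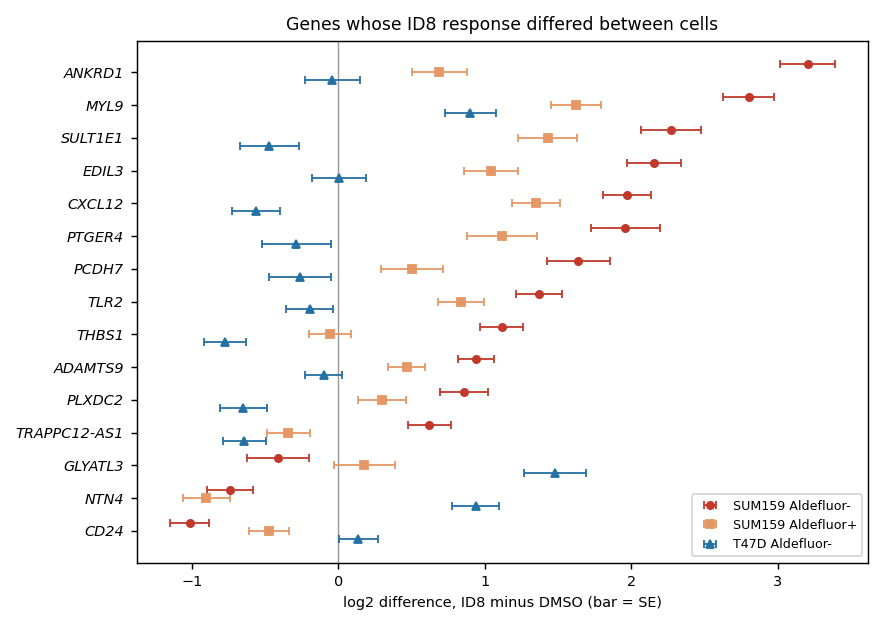
Log2 difference, ID8 minus DMSO, with its SE, of 15 genes in SUM159 Aldefluor- cells, SUM159 Aldefluor+ cells and T47D Aldefluor- cells. ANKRD1 stands at 3.21, 0.69 and -0.04 in these cells, and MYL9 at 2.80, 1.62 and 0.90.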

How the data were processed

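RNA was measured on Affymetrix Human Gene ST 2.1 arrays. The deposited values are log2 signals that the authors made by RMA, and they used limma, per the submitters' processing notes. Per the series' design text, ComBat adjusted experiment and processing batches. Versions, ComBat settings and genome build were not given in the sources used here. Over genes, the SD of an experiment's mean minus the SUM159 mean was 0.0226 or less.

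Of 53617 probe sets, the platform table gave 1 symbol to 23871, several to 1842 and none to 27904. Symbols of 22569 were updated to RefSeq by gene number. For 632 genes with several probe sets the brightest was used, giving 22395 genes, all tested, of which 49% had a mean below 2.

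The test was limma 3.58.1 (R 4.3.3) on 24 arrays with terms for 8 groups and blocks for the experiments of each line, which left 12 residual degrees of freedom. P-values were adjusted by Benjamini-Hochberg over all genes, two-sided, with calls under 0.05. The procedure was also run on simulated arrays, with noise drawn independently per array and experiment means removed. That simulation held no ComBat step and no shared variation of the fractions of an experiment, so error rates under these were not tested. Errors with SE come from this model. The labels state that each number is a separate experiment, which pairs the samples. Deviations from group means correlated at -0.313, -0.302 and -0.291 within experiments and at 0.136 to 0.167 between them, as follows when both kinds of mean have been removed, so they are no separate evidence of pairing. An experiment is a separate treatment of the line. P-values measure the spread of arrays left after group and experiment terms, pooled over the 8 groups of both lines. The fractions of an experiment entered as independent arrays. The spread of the ID8 difference between experiments is the error term only in the fit of the 6 compared arrays, which called 2 genes.

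Named genes were the 15 highest and 15 lowest called genes with the same sign in all 3 experiments, called list members, up to 4 further members per list by size, ALDH1A1, ALDH1A3, DYRK and CLK kinases, and up to 5 genes per direction in the tests of differences. Other genes named were singled out after their values were seen. The members, lists and tests were chosen with earlier results of these data known. Alternatives were no block, SUM159 or the 6 compared arrays alone, each experiment left out, the SUM159 DMSO Aldefluor+ array of experiment 4 left out, a minimum mean of 2, all probe sets, the mean of a gene's probe sets, quantile normalization, limma's trend and robust options, and array weights.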

Additional observations from a re-analysis of the deposited data

Results flagged for a closer look

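The ID8 response of SUM159 Aldefluor- cells differed from that of SUM159 Aldefluor+ cells by a limma test of the difference itself for ANKRD1, by 2.52. Against T47D Aldefluor- cells the same kind of test singled out 15 genes. The SUM159 response lay above the T47D response by 3.25 for ANKRD1, 2.75 for SULT1E1, 2.53 for CXCL12, 2.25 for PTGER4, 2.16 for EDIL3, 1.90 for MYL9, 1.90 for PCDH7, 1.89 for THBS1, 1.57 for TLR2, 1.50 for PLXDC2, 1.27 for TRAPPC12-AS1 and 1.04 for ADAMTS9. It lay below it by a log2 difference of -1.15 for CD24, -1.68 for NTN4 and -1.89 for GLYATL3. TRAPPC12-AS1 was dim in both SUM159 Aldefluor- groups, at 1.18, 1.62 and 1.54 with ID8 and 0.69, 0.92 and 0.86 with DMSO.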

How the results depend on the processing

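ANKRD1 and MYL9 alone were called under all of the 13 alternatives. No called gene changed sign under an alternative that tested it (a minimum mean of 2 tested 56 of the 62). Most alternatives could not change a sign. They keep the estimate, or they average fewer experiments, all 3 of which had the same sign for each called gene. Against 62 genes, the fit without the replicate block called 225 (117 higher, 108 lower), the SUM159 arrays alone 22, the 6 compared arrays 2, and leaving out 1 experiment 8 to 21. It was 60 when the Aldefluor+ DMSO array of SUM159 experiment 4 was left out. The other counts ran from 52 with all probe sets to 91 with a minimum mean of 2. For the difference between SUM159 fractions, against 1 gene, no replicate block gave 36, leaving out that array gave 2, a minimum mean of 2 gave 4, quantile normalization 3, trend and robust options 5, and leaving out 1 experiment 0 to 1. For the difference between lines, against 15 genes, no replicate block gave 82, a minimum mean of 2 gave 29, trend and robust options 23, leaving out 1 experiment 5 to 13, and leaving out that array 16. Without the block, degrees of freedom that the authors' adjustment used are counted again. Fits with fewer arrays have fewer residual degrees of freedom. The causes of the other changes were not tested. The log2 ratio of RNA per cell was 0.07 to 0.48 with 1 experiment left out. With 3 experiments per group and a dim signal for 49% of genes, small changes of dim genes may be missed.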

Other observations

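The axon guidance genes, 29 measured, held no called gene and had a median of -0.03. The furthest were EPHA3, an ephrin receptor, at -0.88 (limma, adjusted p = 0.10) and NTN4 at -0.74 (adjusted p = 0.0749). Among 22 annexins and S100 proteins, ANXA3 rose by 0.83 and 17 lay below 0, where 47.8% of all genes lay above 0. ANXA3 was not called without experiment 3 or without experiment 4. S100A4, a calcium-binding protein of motile cells, read 1.97, 1.91 and 2.26 in ID8 cells and 3.06, 2.96 and 2.58 in DMSO cells and just missed the threshold at -0.82 (adjusted p = 0.0515). The hypoxia list, 21 measured, had no call, with LOX, the collagen cross-linking lysyl oxidase, at 0.76 and STC1 at -0.69. The 13 measured targets of the aryl hydrocarbon receptor had no call and a median of -0.15, with CYP1B1 at 0.48. Interferon response genes, 23 measured, had no call and a median of 0.04.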
